A study of Homo sapiens with 2 samples.

Results

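The genes described here encode the nucleus-made subunits of mitochondrial complexes I to V, the respiratory chain and the ATP synthase. They were taken from the 39720 gene symbols of the count table by name, which gave 81 genes: 37 of complex I (NDUFA, NDUFB, NDUFC, NDUFS and NDUFV), 4 of complex II (SDHA to SDHD), 9 of complex III (UQCR genes and CYC1), 11 of complex IV (COX genes) and 20 of complex V (ATP5 genes). Pseudogenes and read-through genes were left out. The names do not all match the place of the protein: NDUFA4 carries a complex I name and its protein is found in complex IV, ATP5IF1 encodes an inhibitor of the synthase, and ATP5S an associated factor.

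RNA came from A549 cells, a human lung adenocarcinoma line. One library was made from cells infected with lentivirus for a short hairpin RNA against DEPDC1B (shDEPDC1B) and one from cells infected with lentivirus for a negative control hairpin (shNC), in both cases with 5 µg/mL polybrene and with harvest on day 2. The labels do not say whether infected cells were selected, or whether they were a clone or a pool. With 1 library per group, nothing here is checked by replicates, no p-value is given, and what is compared is 2 libraries, not the conditions. Square brackets hold exact 95% intervals, which cover counting error alone. Levels are in CPM, counts per 1000000 of the scaled library, and ratios are of shDEPDC1B over shNC.

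The libraries held 18862371 counts in shDEPDC1B and 18647290 in shNC. DEPDC1B, the targeted gene, had 39 counts in shDEPDC1B and 329 in shNC, a log2 ratio of -2.997 [-3.51, -2.52]. All 10 epithelial and A549 marker genes looked up were above the minimum of 30 counts in the higher library, and together came to 27236 CPM in shDEPDC1B and 23000.0 CPM in shNC. Of the markers of other cell types, 2 of 6 leukocyte genes (CD14 and CD68), 1 of 6 fibroblast genes (COL1A1) and 0 of 5 endothelial genes reached that minimum. Summed, the leukocyte list came to 37.3 CPM in shDEPDC1B and 41.8 CPM in shNC, and the fibroblast list to 6.74 CPM in both. The T cell gene CD3E was at 0 in both libraries, and the summed endothelial level was 0.603 CPM in shDEPDC1B and 0.726 CPM in shNC. In bulk RNA, fewer cells with a transcript and less of it per cell cannot be told apart.

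In the respiratory chain, complex I takes electrons from NADH and complex II from succinate. Complex III passes them on to cytochrome c, complex IV passes them to oxygen, and the ATP synthase (complex V) makes ATP from the proton gradient that complexes I, III and IV build up. All but complex II also hold subunits encoded by mitochondrial DNA. The core subunits of complex IV that bear its metal centres are among these, so that the nuclear COX genes encode its accessory subunits. Subunits of 1 complex have to be made in matching amounts, and those that are not assembled are broken down.

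The subunit genes were higher in shDEPDC1B as a group, in every complex. Of the 81 genes, 80 had at least 30 counts in the higher library and were assessed, and all 80 had a ratio above 1, where 51.9% of the 13850 assessed genes of the table did. The intervals of 78 lay above equality (38.9% of all assessed genes), and those of NDUFA3 and ATP5S included it. At least 1.5-fold higher with an interval above equality were 42 of the 80, against 19.2% of all assessed genes. That share differed with transcript length, and shares by length are given below. None was at least 1.5-fold lower, against 19.6% of all assessed genes. NDUFS7, NDUFB7 and NDUFA7 were at least 2-fold higher, against 5.86% of all assessed genes. None lay 2-fold or more below its level in shNC, where 8.97% of all assessed genes did. The median log2 ratio was 0.59 for the 80 genes and 0.04 for all assessed genes, and single subunit genes ran from 0.11 (NDUFS1) to 1.10 (NDUFS7). Together they made up 1.08% of the counts of shDEPDC1B and 0.780% of those of shNC. The gene not assessed was ATP5MGL, a copy of the ATP5MG gene, with 0 counts in shDEPDC1B and 6 in shNC, too few for a fold.

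**Figure D1:**
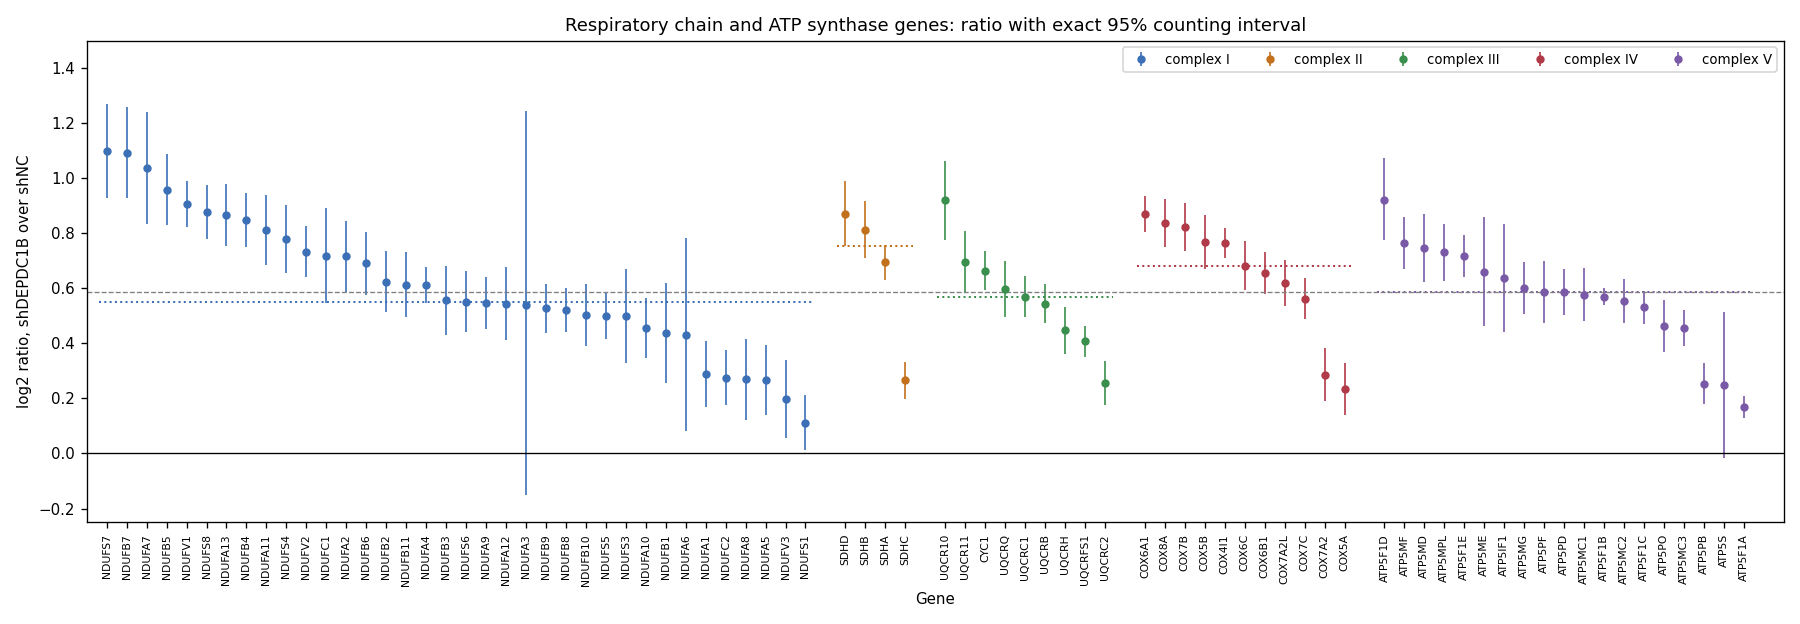
Log2 ratio of shDEPDC1B over shNC (vertical axis) for 79 of the 80 assessed genes (horizontal axis), sorted within complexes I to V. Points are ratios of scaled counts, bars are exact 95% counting intervals, dotted lines are the median of all assessed genes of each complex, and the dashed line marks 1.5-fold. All points lie above 0, and the widest bar is that of NDUFA3, with 44 counts in shDEPDC1B and 32 in shNC.

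Transcript length moved with these ratios across the whole table. Short transcripts were higher in shDEPDC1B and long ones lower, with a Spearman correlation between log2 ratio and longest annotated transcript of -0.51 across 12977 assessed genes, which share the 2 libraries and are not independent replicates. The subunit genes are short: their longest annotated transcripts had a median of 1265.5 nucleotides (nt), against 3405 nt for all assessed genes. Among genes under 1000 nt, the median log2 ratio was 0.66 for 31 subunit genes and 0.58 for all 526 assessed genes of that size. From 1000 to under 1500 nt the medians were 0.67 for 16 subunit genes and 0.54 for all 900 genes, and from 1500 to under 2500 nt 0.61 for 14 subunit genes and 0.37 for all 2814 genes. At 2500 nt or more they were 0.41 for 19 subunit genes and -0.16 for all 8753 genes. The distance from other genes of the same size was thus small in the shortest class and largest in the longest of these 4 classes. Called at least 1.5-fold higher were 18 of 31 subunit genes under 1000 nt, against 48.7% of all genes of that size. In the next classes they were 11 of 16 against 44.9%, 8 of 14 against 31.6%, and 5 of 19 against 10.6%. At least 1.5-fold lower were 37 of all 526 genes under 1000 nt and 2208 of all 8753 at 2500 nt or more.

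After a smooth curve of ratio on length (loess) was subtracted, the median log2 ratio of the subunit genes was 0.18, and that of all assessed genes 0.01. Of the 80 genes 61 stayed above 0 and 19 came below it, where 6549 of the 12993 assessed genes with a length were above 0. By ratio alone 12 of the 80 were at least 1.5-fold higher after the fit, as were 1726 of the 12993. These 12 were not all among the 42 called before: SDHC, NDUFS1 and ATP5S, for example, came past 1.5-fold only through the fit. Some members have very long annotated transcripts, such as SDHC (13566 nt), NDUFS1 (11819 nt) and ATP5S (10212 nt), whose ratios moved up after the fit. With the length of 1 main isoform per gene in place of the longest, the median was again 0.18, with 56 genes above 0 and 24 below. Of the 12993 assessed genes with a length, 6595 were above 0 after that fit. SDHC, NDUFS1 and ATP5S kept the same long transcripts in it.

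**Figure D2:**
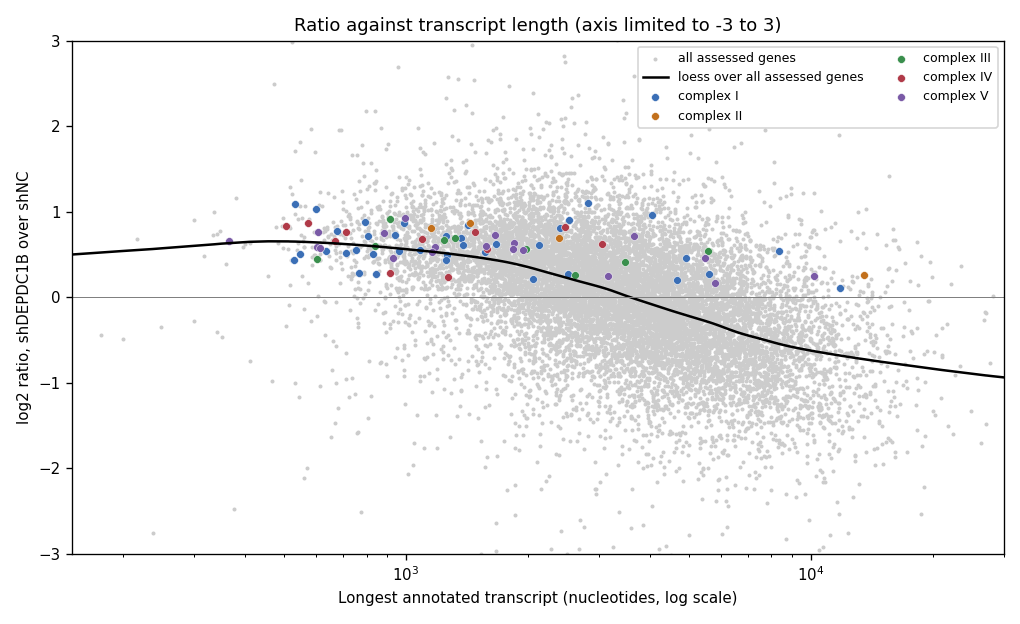
Log2 ratio of shDEPDC1B over shNC (vertical axis, limited to -3 to 3) against the longest annotated transcript in nucleotides (horizontal log axis). Grey points are assessed genes, the line is the loess over them, and coloured points are the subunit genes by complex. Below 1000 nt the subunit genes scatter around the line, and all 19 at 2500 nt or more lie above it.

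No complex stood apart from the others in the range of its genes, which overlapped in all 5. The median log2 ratio was 0.55 in complex I (37 genes, SD across genes 0.26), 0.75 in complex II (4 genes, SD 0.27), 0.57 in complex III (9 genes, SD 0.19), 0.68 in complex IV (11 genes, SD 0.21) and 0.59 in complex V (19 genes, SD 0.19). The share of genes at least 1.5-fold higher was 17 of 37 in complex I, 3 of 4 in complex II, 4 of 9 in complex III, 8 of 11 in complex IV and 10 of 19 in complex V. Counts summed over a complex gave the highest ratio for complex IV, at 1993 CPM in shDEPDC1B and 1245 CPM in shNC, or 1.60-fold [1.57, 1.63]. Complex I summed to 3195 CPM in shDEPDC1B and 2129 CPM in shNC (1.501-fold [1.48, 1.52]), and complex II to 677 CPM in shDEPDC1B and 450.5 CPM in shNC (1.502-fold [1.46, 1.54]). Complex III came to 1467 CPM in shDEPDC1B and 1024 CPM in shNC (1.43-fold [1.41, 1.46]), and complex V to 3823 CPM in shDEPDC1B and 2697 CPM in shNC (1.42-fold [1.40, 1.43]). By counting error alone the sum of complex IV stood above the other 4, those of I and II overlapped, and those of III and V overlapped. A sum weights genes by abundance, and in complex V the single gene ATP5F1B held 1185 of the 3823 CPM.

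The order of the complexes also depended on length. After the curve on the longest transcript was subtracted, the medians were 0.16 in complex I, 0.42 in complex II, 0.20 in complex III, 0.15 in complex IV and 0.16 in complex V. With main isoform lengths they were 0.15 in complex I, 0.48 in complex II, 0.20 in complex III, 0.17 in complex IV and 0.14 in complex V. Complex IV, with the shortest transcripts (median 1098 nt), thus lay with complexes I, III and V after either fit, while the 4 genes of complex II stayed higher, SDHC among them with its very long annotated transcript. Moving NDUFA4 from complex I to complex IV left the medians at 0.55 and 0.67.

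**Figure D3:**
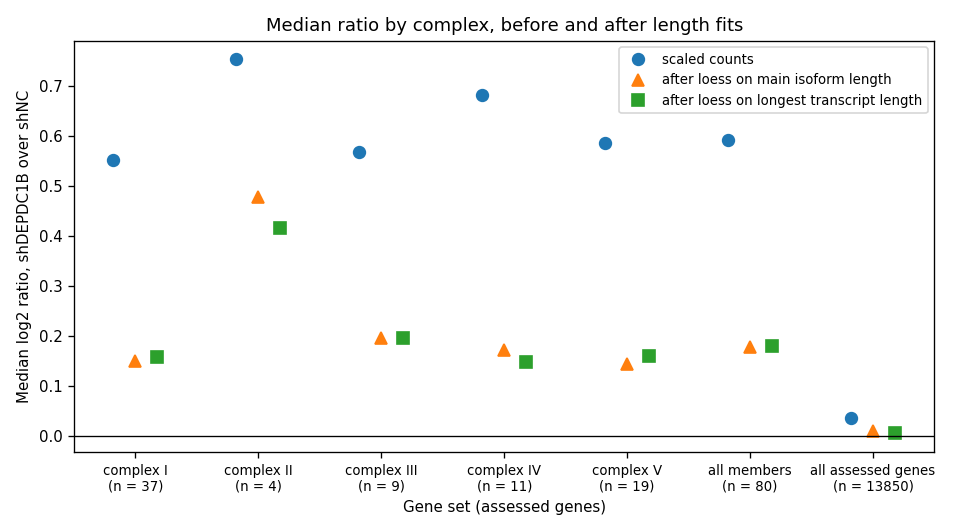
Median log2 ratio of shDEPDC1B over shNC (vertical axis) for complexes I to V, all subunit genes and all assessed genes (horizontal axis, with the number of genes). Circles are scaled counts, triangles and squares are the same after a loess on main isoform length or on longest transcript length was subtracted. Before the fits the complexes lie between 0.55 and 0.75, and after them 4 of the 5 lie between 0.14 and 0.20.

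Complex I is built from a conserved catalytic core, 7 of whose subunits are nuclear, and from a larger number of accessory subunits. The 7 nuclear core genes spanned the whole range of the complex. NDUFS7 (chr19:1383527-1395589, plus strand), an iron-sulfur subunit near the quinone site, was at 46.8 CPM in shDEPDC1B and 21.8 CPM in shNC, the highest ratio of all members (2.14-fold [1.90, 2.41]). NDUFV1, which binds NADH through its flavin, was at 178 CPM in shDEPDC1B and 95.02 CPM in shNC (1.87-fold [1.77, 1.98]). The iron-sulfur subunits NDUFS8 (1.84-fold) and NDUFV2 (1.66-fold) were also past 1.5-fold. NDUFS3 (1.41-fold [1.26, 1.59]) was not. NDUFS1 (chr2:206114817-206159603, minus strand), the largest subunit, was at 89.9 CPM in shDEPDC1B and 83.2 CPM in shNC (1.08-fold [1.01, 1.16]). The counting intervals of NDUFS7 and NDUFS1 did not overlap. The gap depended on length: log2 ratios after the curve on longest length were 0.94 for NDUFS7 and 0.79 for NDUFS1, and after that on main isoform length 0.58 for NDUFS7 and 0.83 for NDUFS1, the reverse order. The deposited NDUFS1 value has more decimals than those of most genes, as a mean over gene copies would, so its interval is uncertain.

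Of the 29 accessory genes of complex I that are placed in it, 12 were at least 1.5-fold higher, and their median log2 ratio was 0.55, against 0.73 for the 7 core genes. After NDUFS7 the highest ratios of the complex were those of NDUFB7, on the face towards the intermembrane space, at 49.3 CPM in shDEPDC1B and 23.1 CPM in shNC (2.13-fold [1.90, 2.39]), and NDUFA7, in the arm that reaches into the matrix, at 31.8 CPM in shDEPDC1B and 15.5 CPM in shNC (2.05-fold [1.78, 2.37]). NDUFB5 (1.94-fold), NDUFA13 (1.82-fold) and NDUFB4 (1.80-fold) followed. NDUFV3, an accessory subunit beside the NADH site, was second lowest after NDUFS1, at 46.9 CPM in shDEPDC1B and 40.9 CPM in shNC (1.15-fold [1.04, 1.27]). NDUFA5, NDUFA8, NDUFC2 and NDUFA1 lay between 1.203-fold and 1.22-fold, and the remaining accessory genes between 1.35-fold and 1.76-fold. NDUFA4 was at 253 CPM in shDEPDC1B and 166 CPM in shNC (1.53-fold [1.46, 1.60]). This was the highest CPM of a gene with a complex I name, but not the highest level per length of transcript. NDUFA3 was at 2.41 CPM in shDEPDC1B and 1.66 CPM in shNC (1.45-fold [0.901, 2.37]), the lowest CPM of any assessed member. Its deposited value also looks like a mean over gene copies, so neither its level nor its interval can be read closely.

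Complex II, succinate dehydrogenase, is the one complex of the chain with no mitochondrially encoded subunit, and it is also an enzyme of the citric acid cycle. Its catalytic head was higher in shDEPDC1B: the flavin subunit SDHA was at 273 CPM in shDEPDC1B and 169 CPM in shNC (1.62-fold [1.55, 1.69]), and the iron-sulfur subunit SDHB at 111 CPM in shDEPDC1B and 63.3 CPM in shNC (1.76-fold [1.64, 1.89]). In scaled counts the membrane anchor was uneven. SDHD (chr11:112086773-112120013, plus strand) was at 86.8 CPM in shDEPDC1B and 47.5 CPM in shNC (1.83-fold [1.68, 1.99]), whereas SDHC was at 206 CPM in shDEPDC1B and 171 CPM in shNC (1.202-fold [1.15, 1.26]). The intervals of SDHC and SDHD, which encode partners in 1 anchor, did not overlap. This order depended on length, with annotated transcripts of 13566 nt for SDHC and 1439 nt for SDHD. After the curve on longest length the log2 ratios were 0.99 for SDHC and 0.39 for SDHD, the reverse order. After that on main isoform length they were 1.04 for SDHC and 0.45 for SDHD. SDHA has pseudogenes in the table, and reads that match both are shared by a model, so its counts carry an error that the interval does not hold.

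The highest ratios of complex III were those of UQCR10 and UQCR11, small subunits that bear no redox centre, followed by the redox subunit CYC1. UQCR10 (chr22:29767369-29770413, plus strand) was at 60.8 CPM in shDEPDC1B and 32.2 CPM in shNC (1.89-fold [1.71, 2.09]), and UQCR11 at 1.62-fold [1.498, 1.75], while UQCRQ was at 1.51-fold [1.41, 1.62]. CYC1, which encodes the haem protein cytochrome c1, was at 211 CPM in shDEPDC1B and 133 CPM in shNC (1.59-fold [1.51, 1.67]). UQCRFS1, the Rieske iron-sulfur protein, was at 307 CPM in shDEPDC1B and 232 CPM in shNC (1.33-fold [1.27, 1.38]). This was the highest CPM of the complex, but not the highest level per length of transcript. The core proteins, which bear no redox centre, were at 193 CPM in shDEPDC1B and 130.2 CPM in shNC for UQCRC1 (1.48-fold [1.41, 1.56]) and at 149 CPM in shDEPDC1B and 125 CPM in shNC for UQCRC2 (1.195-fold [1.13, 1.26]), the lowest of the complex. UQCRB (1.46-fold) and UQCRH (1.36-fold) lay between these. UQCRB has a pseudogene and UQCRH a near copy in the table.

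In complex IV, 9 of 11 genes lay between 1.48-fold and 1.83-fold. The highest were those of small membrane subunits: COX6A1 (chr12:120438090-120440742, plus strand) was at 284 CPM in shDEPDC1B and 156 CPM in shNC (1.83-fold [1.75, 1.91]), COX8A at 157 CPM in shDEPDC1B and 88.1 CPM in shNC (1.79-fold [1.68, 1.90]) and COX7B at 159 CPM in shDEPDC1B and 89.6 CPM in shNC (1.77-fold [1.67, 1.88]). COX4I1, the general isoform of the largest nuclear subunit, was at 388 CPM in shDEPDC1B and 229 CPM in shNC (1.70-fold [1.63, 1.76]). The exceptions were COX7A2 (1.22-fold [1.14, 1.30]) and COX5A, at 106 CPM in shDEPDC1B and 90.2 CPM in shNC (1.18-fold [1.10, 1.26]). COX5B, a different subunit despite its name, was at 120.4 CPM in shDEPDC1B and 70.7 CPM in shNC (1.70-fold [1.59, 1.82]). COX7A2L, which is known to take the place of COX7A2 where complexes III and IV join in a supercomplex, was at 1.54-fold [1.45, 1.63], above the interval of COX7A2. The tissue-restricted isoforms COX4I2, COX6A2, COX7A1, COX7B2 and COX8C had 0 counts in both libraries, and COX6B2 had 20 counts in shDEPDC1B and 22 in shNC.

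In the ATP synthase, the F1 part makes ATP, the c ring in the membrane turns, and a peripheral stalk holds the parts together. In scaled counts the genes of the catalytic hexamer differed from each other. ATP5F1B (beta; chr12:56638175-56646068, minus strand) was at 1185 CPM in shDEPDC1B and 798 CPM in shNC (1.48-fold [1.45, 1.52]), the most abundant of all members. ATP5F1A (alpha), its partner in equal numbers, was at 539 CPM in shDEPDC1B and 479 CPM in shNC (1.12-fold [1.09, 1.16]), the lowest ratio of the complex. Their order was reversed after the curve on longest length, with log2 ratios of 0.48 for ATP5F1A (5818 nt) and 0.17 for ATP5F1B (1839 nt). After that on main isoform length they were 0.52 for ATP5F1A and 0.25 for ATP5F1B. The small central stalk subunits ATP5F1D (delta) and ATP5F1E (epsilon) were at 1.90-fold [1.71, 2.10] and 1.64-fold [1.56, 1.73], with ATP5F1D at 56.6 CPM in shDEPDC1B and 29.9 CPM in shNC. In the peripheral stalk, ATP5PF was at 1.502-fold and ATP5PD at 1.501-fold, just past the threshold, ATP5PO was at 1.38-fold and ATP5PB at 1.19-fold [1.13, 1.25]. All 5 small membrane subunits (ATP5MD, ATP5ME, ATP5MF, ATP5MG and ATP5MPL) were at least 1.5-fold higher, from 1.52-fold to 1.70-fold. Of all assessed genes 19.2% were, and of those with a longest transcript under 1000 nt 48.7%. The main isoforms of these 5 genes had a median of 365 nt. After the curve on longest length their log2 ratios ran from 0.03 to 0.30, and none reached 1.5-fold. The inhibitor ATP5IF1 was at 28.8 CPM in shDEPDC1B and 18.5 CPM in shNC (1.55-fold [1.36, 1.78]), and ATP5S at 13.9 CPM in shDEPDC1B and 11.7 CPM in shNC (1.19-fold [0.989, 1.43]).

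In the c ring, 3 genes, ATP5MC1 on chromosome 17, ATP5MC2 on chromosome 12 and ATP5MC3 on chromosome 2, encode the same mature subunit behind different import signals. Their sequences are shown because they let the values of 1 protein's genes be compared. Their GENCODE 29 reading frames end in 77 codons for the same residues, yet the DNA of that stretch of 231 bases differs at 57 positions. Identity over the stretch was 88.3% between ATP5MC1 and ATP5MC2, and 80.1% between ATP5MC3 and each of the others. The first 90 bases of the stretch are shown, 5′ to 3′ on the coding strand, with capitals at the 23 positions where the genes are not all alike.
ATP5MC1: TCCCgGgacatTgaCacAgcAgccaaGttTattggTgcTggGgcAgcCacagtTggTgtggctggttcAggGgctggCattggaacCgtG
ATP5MC2: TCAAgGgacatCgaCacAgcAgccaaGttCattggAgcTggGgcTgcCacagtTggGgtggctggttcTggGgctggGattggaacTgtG
ATP5MC3: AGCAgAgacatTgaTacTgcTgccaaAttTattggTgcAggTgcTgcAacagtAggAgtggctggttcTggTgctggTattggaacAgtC
ATP5MC1 was at 116 CPM in shDEPDC1B and 78.1 CPM in shNC (1.49-fold [1.40, 1.59]), ATP5MC2 at 169.7 CPM in shDEPDC1B and 116 CPM in shNC (1.47-fold [1.39, 1.55]), and ATP5MC3 at 242 CPM in shDEPDC1B and 177 CPM in shNC (1.37-fold [1.31, 1.44]). None of the 3 reached 1.5-fold, the whole interval of ATP5MC3 lay below it, and the counting intervals of each overlapped those of the others. After the curve on longest length they lay apart, with log2 ratios of -0.062 for ATP5MC1, 0.19 for ATP5MC2 and 0.73 for ATP5MC3, and after that on main isoform length at -0.039, 0.26 and 0.77 in the same order of genes. ATP5MC3, with an annotated transcript of 5484 nt, was then past 1.5-fold. Their summed level was 528 CPM in shDEPDC1B and 370.2 CPM in shNC, or 1.43-fold [1.38, 1.47].

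**Figure D4:**
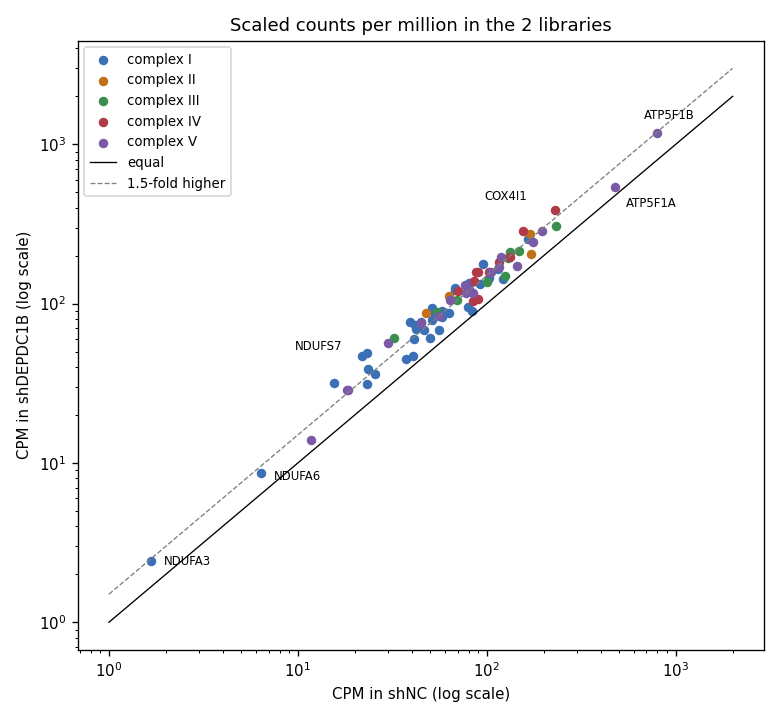
Level in CPM in shDEPDC1B (vertical log axis) against shNC (horizontal log axis) for the 80 assessed genes, coloured by complex. The solid line marks equal levels and the dashed line 1.5-fold higher in shDEPDC1B. All points lie above the solid line, from NDUFA3 at 2.41 CPM in shDEPDC1B and 1.66 CPM in shNC to ATP5F1B at 1185 CPM in shDEPDC1B and 798 CPM in shNC.

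Levels of different genes can be set beside each other only per length of transcript. Per 1000 nt of main isoform, ATP5F1B was highest at 644 CPM in shDEPDC1B and 434 CPM in shNC, followed by COX4I1 at 548 CPM in shDEPDC1B and 323 CPM in shNC, COX6A1 at 497 CPM in shDEPDC1B and 272 CPM in shNC, and ATP5MF at 427 CPM in shDEPDC1B and 251 CPM in shNC. The order of these 4 genes was the same in both libraries. At the low end, apart from NDUFA3, stood NDUFA6 at 6.85 CPM in shDEPDC1B and 5.08 CPM in shNC. NDUFS1, SDHC, NDUFA9 and ATP5S were low on this scale too, but their annotated isoforms (8363 nt or longer) lower the value. NDUFV3, with an isoform of 4676 nt, was at 10.03 CPM per 1000 nt in shDEPDC1B and 8.74 in shNC. How the deposited counts of NDUFA3 and NDUFA6 were made was not tested.

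By position, the 10 assessed members on chromosome 19 had a median log2 ratio of 0.84, with 8 past the 1.5-fold threshold, while the 70 members elsewhere had a median of 0.57, with 34 past it. NDUFS7, NDUFB7, NDUFA7 and ATP5F1D are among those on chromosome 19. All 903 assessed genes of this chromosome had a median log2 ratio of 0.38, with 34.1% past the same threshold, against 19.2% of all assessed genes. The longest transcripts of the chromosome 19 members were also shorter, with a median of 994 nt against 1317 nt for members elsewhere. Their median GC content was 61.8%, against 47.5% for members elsewhere, and GC content also moved with the ratio (Spearman correlation 0.37 across all assessed genes with a length and 0.29 across the 80 members). The part of GC content in these differences was not tested. After the curve on longest length, the median log2 ratio of the chromosome 19 members was 0.37, and that of the other members 0.16. For all 903 assessed genes of this chromosome it was then 0.21. Exons of 45 of the 81 members share bases with another annotated gene, and no source used here says whether strand was kept. The 35 assessed members without such overlap had a median log2 ratio of 0.58, with 17 past the 1.5-fold threshold.

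Promoters of respiratory genes are known for sites of the factors NRF1, GABP (an ETS factor) and YY1. Of the 81 members 63 matched an entry of the RefSeq promoter table (GRCh38.p14, 250 bases before to 50 after each start), with 76 entries. Letters were searched on both strands. The NRF1 letters, GCGCA and GCGC with 1 base of any kind between them, were found in 19.7% of the 76 member entries and in 5.78% of all 35116 entries. For the ETS letters CCGGAAG the shares were 27.6% of member entries and 10.3% of all, for the YY1 letters AANATGGC 36.8% of member entries and 6.58% of all, and for the SP1 letters GGGCGG 63.2% of member entries and 45.0% of all. Within the members, the median log2 ratio was 0.57 for 15 genes with the NRF1 letters and 0.60 for 48 without, 0.66 for 20 genes with the ETS letters and 0.56 for 43 without, 0.56 for 26 genes with the YY1 letters and 0.61 for 37 without, and 0.57 for 41 genes with the SP1 letters and 0.66 for 22 without. Shown are the promoters of the member with the highest ratio in each complex that has an entry, and last that of NDUFS1, the member with the lowest. Capitals mark matches to the NRF1, ETS or YY1 letters on either strand, and each is written 5′ to 3′ in the direction of the gene.
NDUFS7, chr19:1383657-1383956, plus strand: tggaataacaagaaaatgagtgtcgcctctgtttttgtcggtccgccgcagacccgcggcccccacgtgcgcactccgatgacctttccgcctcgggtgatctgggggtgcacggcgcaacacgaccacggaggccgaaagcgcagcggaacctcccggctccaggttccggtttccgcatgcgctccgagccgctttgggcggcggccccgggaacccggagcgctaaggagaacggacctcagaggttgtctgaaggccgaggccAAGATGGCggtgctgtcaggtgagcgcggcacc
SDHD, chr11:112086623-112086922, plus strand: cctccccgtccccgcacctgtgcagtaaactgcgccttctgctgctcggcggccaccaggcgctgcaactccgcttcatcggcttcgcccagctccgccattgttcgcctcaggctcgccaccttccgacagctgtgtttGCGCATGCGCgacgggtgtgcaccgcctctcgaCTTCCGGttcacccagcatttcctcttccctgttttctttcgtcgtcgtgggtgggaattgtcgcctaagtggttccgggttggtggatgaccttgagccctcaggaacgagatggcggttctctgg
UQCR10, chr22:29767119-29767418, plus strand: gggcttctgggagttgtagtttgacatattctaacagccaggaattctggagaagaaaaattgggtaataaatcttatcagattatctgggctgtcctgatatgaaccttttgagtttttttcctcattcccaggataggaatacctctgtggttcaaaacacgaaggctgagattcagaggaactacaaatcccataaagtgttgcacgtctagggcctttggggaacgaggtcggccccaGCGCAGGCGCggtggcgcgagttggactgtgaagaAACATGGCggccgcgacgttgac
COX6A1, chr12:120437863-120438162, plus strand: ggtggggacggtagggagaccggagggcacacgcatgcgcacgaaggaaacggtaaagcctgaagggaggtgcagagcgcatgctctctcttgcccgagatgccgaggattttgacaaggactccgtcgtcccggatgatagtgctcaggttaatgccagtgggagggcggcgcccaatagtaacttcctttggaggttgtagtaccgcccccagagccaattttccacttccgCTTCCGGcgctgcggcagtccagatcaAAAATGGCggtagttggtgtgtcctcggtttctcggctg
ATP5F1E, chr20:59032286-59032585, minus strand: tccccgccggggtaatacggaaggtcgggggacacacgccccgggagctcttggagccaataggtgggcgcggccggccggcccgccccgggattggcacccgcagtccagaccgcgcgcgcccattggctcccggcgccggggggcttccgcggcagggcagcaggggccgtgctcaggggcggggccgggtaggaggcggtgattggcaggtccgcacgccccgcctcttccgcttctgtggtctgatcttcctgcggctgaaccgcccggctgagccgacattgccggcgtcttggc
NDUFS1, chr2:206159395-206159694, minus strand: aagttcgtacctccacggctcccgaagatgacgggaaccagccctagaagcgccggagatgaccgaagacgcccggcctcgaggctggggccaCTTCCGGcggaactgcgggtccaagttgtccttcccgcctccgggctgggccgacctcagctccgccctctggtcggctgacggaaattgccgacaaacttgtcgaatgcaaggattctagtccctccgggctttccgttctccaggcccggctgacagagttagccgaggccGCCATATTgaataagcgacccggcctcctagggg
UQCR10 and SDHD held the NRF1 letters, SDHD, COX6A1 and NDUFS1 the ETS letters, and NDUFS7, UQCR10, COX6A1 and NDUFS1 the YY1 letters. The ATP5F1E window held none of the 3. NDUFS1, at 1.08-fold, and COX6A1, at 1.83-fold, thus held the same pair of motifs, and a match is a string of letters and not a shown site.

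Genes listed here as assembly factors, which take part in building the complexes, varied more than the subunits. Their SD across genes was 0.45 on the log2 scale, against 0.23 for the subunits and 0.75 for all assessed genes. They also had fewer counts (median 714 in the higher library, against 1983.5 for the subunits). Their longest transcripts were longer, with a median of 2025.5 nt, against 1265.5 nt for the subunits. Of 55 assessed assembly genes for the 5 complexes, 20 were at least 1.5-fold higher (19.2% of all assessed genes were) and 1 was lower (19.6% of all), 43 had a ratio above 1 (51.9% of all), and the median log2 ratio was 0.45. Higher were 7 of 18 for complex I, 1 of 4 for complex II, 2 of 6 for complex III, 8 of 23 for complex IV and 2 of 4 for complex V. The highest were ATPAF2, an F1 chaperone, with 683 counts in shDEPDC1B and 305 in shNC (log2 ratio 1.24), and the complex I factor ECSIT, with 673 counts in shDEPDC1B and 330 in shNC (1.11). NDUFAF3 (0.96), FMC1 (0.96), BCS1L, which brings the Rieske protein into complex III (0.96), and DMAC1 (0.94) followed on the log2 scale. COA7, a complex IV factor, was the one at least 1.5-fold lower, with 261 counts in shDEPDC1B and 449 in shNC (-0.70). After the curve on longest length, the median of the 54 assembly genes with a length was 0.08 and 21 were below 0, beside 0.18 and 19 of 80 for the subunit genes.

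Of 8 further assessed genes of the chain, NDUFAB1, the acyl carrier protein in complex I, had 1514 counts in shDEPDC1B and 917 in shNC (log2 ratio 0.80), and ETFB, an electron carrier from fat breakdown, 2819 counts in shDEPDC1B and 1735 in shNC (0.78). HIGD1A, a small respiratory chain protein induced by low oxygen, was lower, with 1046 counts in shDEPDC1B and 2057 in shNC (-0.90 [-1.005, -0.79]), while its relative HIGD2A was at 0.56 [0.43, 0.68]. Cytochrome c itself (CYCS) had 6922 counts in shDEPDC1B and 6748 in shNC (0.12 [0.07, 0.17]). Of 21 assessed regulators of respiratory genes and of mitochondrial DNA expression, 10 had a ratio above 1, a share near the 51.9% of all assessed genes, and the median log2 ratio was -0.09, against 0.04 for all. POLRMT, the mitochondrial RNA polymerase, was at least 1.5-fold higher, with 2287 counts in shDEPDC1B and 1457 in shNC (0.73). The coactivator PPARGC1B (-0.72) and the mitochondrial transcription factor MTERF1 (-0.65) were at least 1.5-fold lower. NRF1 was at 0.52 [0.28, 0.75], GABPA at -0.13 [-0.29, 0.04], TFAM at -0.13 [-0.23, -0.04], and PPARGC1A, with 63 counts in shDEPDC1B and 94 in shNC, at -0.50 [-0.98, -0.02]. The median of this list after the curve on longest length was 0.07. None of the 26 symbols looked up for the mitochondrially encoded subunits was found in the count table, so these subunits were not analysed here.

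**Figure D5:**
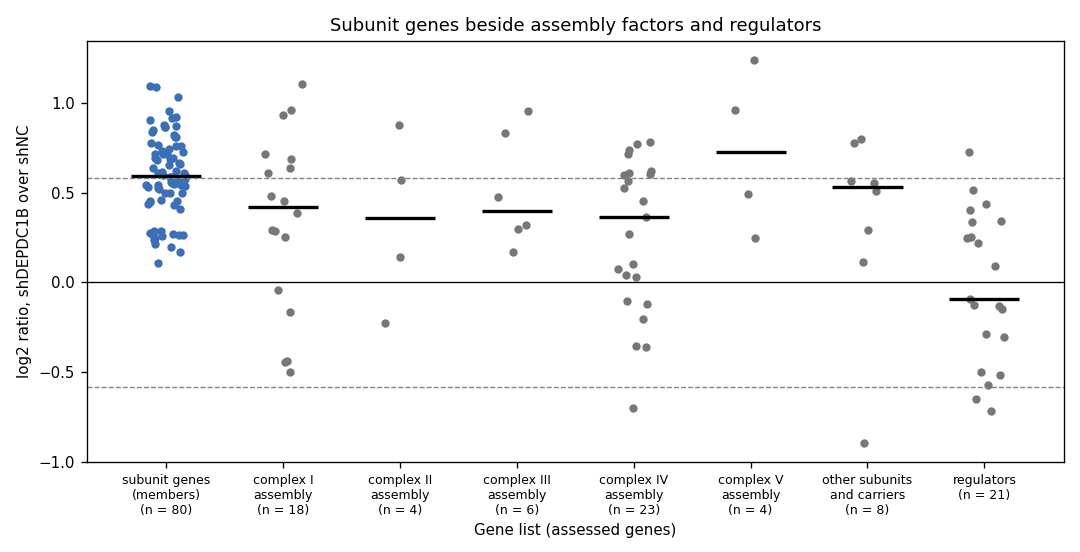
Log2 ratio of shDEPDC1B over shNC (vertical axis) for the 80 subunit genes, for assembly factors of complexes I to V, for other subunits and carriers and for regulators (horizontal axis, with the number of assessed genes). Points are genes, thick lines are list medians, and dashed lines mark 1.5-fold in either direction. The subunit genes all lie above 0, as do the assembly factors of complexes III and V, while those of complexes I, II and IV and the regulators lie on both sides of it.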

How the data were processed

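RNA sequencing of A549 cells was done on an MGI platform, per the labels' protocols. The authors deposited estimated counts per gene symbol, made with Bowtie2 and RSEM on hg38 per the submitters' processing notes. Versions, annotation and strandedness: not given in the sources used here. RSEM shares reads that match several genes by a model.

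Estimated counts were rounded to whole numbers and scaled with TMM factors (edgeR 4.0.16 in R 4.3.3), 0.967 for shDEPDC1B and 1.03 for shNC. CPM are counts per 1000000 of the scaled library. With 1 library per group no test was possible. Ratios carry exact Clopper-Pearson 95% intervals (scipy 1.17.1), which cover counting error only. A gene was assessed if its higher library held 30 or more counts, and called if the ratio reached 1.5-fold and equality lay outside its interval. Depth was 18862371 counts in shDEPDC1B and 18647290 in shNC.

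Coordinates and transcript lengths are from GENCODE 29 (GRCh38), matched for 93.8% of assessed genes. The main isoform is the APPRIS principal transcript of support level 1 with the lowest number in its name. Where none had that level, a principal transcript of any level was taken in the same way, or else the longest coding transcript. The loess had a span of 0.3 (statsmodels 0.14.6). Values not whole hundredths (tolerance 0.001) were read as like a mean over gene copies. Steps were tested on simulated data.

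Values of single genes withheld from this text are not reported here, and they stay in the counts and medians. Every other member could be named. Full values go to the 3 highest and 2 lowest of each complex, fixed core genes, the c subunit genes, NDUFA4 and genes under the minimum, and other pathway genes are named at 1.5-fold, with a few more (such as CYCS, TFAM, NRF1) chosen after their values were seen. Members and lists were chosen with earlier results of these data known. Alternatives were DESeq2 1.42.0 size factors, library totals, 2 other filters, a prior count of 2, a 2-fold threshold and fits on length, of which that on main isoform length was added after the data were seen.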

Additional observations from a re-analysis of the deposited data

How the results depend on the processing

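No paired analysis was possible because each group has 1 library, and no library could be left out. All 80 assessed members kept a ratio above 1 under DESeq2 size factors, library totals and a prior count of 2. Members at least 1.5-fold higher were 42 (19.2% of all assessed genes were), then 33 with DESeq2 size factors and 30 with library totals. They were 12 after the loess on the longest transcript, 9 after the loess on the main isoform, and 3 at 2-fold (5.86% of all assessed genes). The share of all assessed genes was not counted for DESeq2 size factors, library totals or the main isoform fit. The 12 include genes not called before the fit, such as NDUFS1, SDHC and ATP5S. By ratio alone, 1726 of 12993 assessed genes with a length reached 1.5-fold after the loess on the longest transcript. The count at least 1.5-fold lower was 0 and became 1 (ATP5MGL) with no filter. With library totals the medians of all 5 complexes fell by the same amount. They were then 0.46 for complex I, 0.66 for II, 0.47 for III, 0.59 for IV and 0.49 for V. After the loess on the longest transcript they were 0.18 for all members, 0.16 for complex I, 0.42 for II, 0.20 for III, 0.15 for IV and 0.16 for V, and after that on the main isoform 0.18 for all, 0.15 for I, 0.48 for II, 0.20 for III, 0.17 for IV and 0.14 for V. Of members called higher, ATP5PD (-0.055) changed sign on the longest length, and ATP5IF1 (-0.00055), ATP5PD (-0.028), ATP5PF (-0.025), NDUFB2 (-0.012) and UQCRQ (-0.020) on the main isoform. Among the alternatives run, only the length fits changed the sign of an assessed member, and the cause was not tested. Counting error is small for most members, and the spread between cultures or library preparations is unknown.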

Other observations

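Read-through and copied genes that share sequence with members did not all follow them. ATP5MF-PTCD1 had 157 counts in shDEPDC1B and 317 in shNC (log2 ratio -0.93 [-1.22, -0.65]), while ATP5MF was at 0.76. NDUFC2-KCTD14 had 71 counts in shDEPDC1B and 135 in shNC (-0.85 [-1.28, -0.42]), while NDUFC2 was at 0.28. The pseudogene UQCRBP1 had 664 counts in shDEPDC1B and 352 in shNC (0.995 [0.81, 1.19]), above UQCRB at 0.54. SDHAP1 had 126 counts in shDEPDC1B and 200 in shNC (-0.59 [-0.92, -0.26]), while SDHA was at 0.69. Reads of these genes can be split with their parents by the counting model.

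Among partners that meet in equal numbers in the finished enzyme, 3 pairs with unequal ratios were SDHD and SDHC (log2 ratios 0.87 and 0.27), ATP5F1B and ATP5F1A (0.57 and 0.17), and COX5B and COX5A (0.77 and 0.24). After the loess on the longest transcript, SDHC (0.99) and ATP5F1A (0.48) were above SDHD (0.39) and ATP5F1B (0.17), whereas COX5B (0.15) stayed above COX5A (-0.28). These pairs were chosen after their values were seen.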
